A study of Mus musculus with 2 samples.

Results

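Cancer_cell_1 is the name the authors gave to the commonest epithelial subtype of distal colon adenomas from 25-week-old mice of the strain Apcmin;LSL-mTERT. Its members are the cells that carry this name in the deposited epithelial annotation, and they numbered 1259 of 3041 epithelial cells (41.4%), or 8.93% of the 14097 cells of the series. The authors sorted the cells into the classes CIN_high and CIN_low, CIN being a usual abbreviation of chromosomal instability. Each class is 1 droplet library: every cell of the first library was CIN_high and every cell of the second was CIN_low. Both libraries share the Apcmin allele, a truncating mutation of Apc, and the LSL-mTERT allele, in which a stop cassette flanked by loxP sites precedes mouse Tert. The labels do not say which Cre driver was used or how it was induced. The sample titles name the libraries G0+T and G4+T, but the cell names carry the same G0 prefix in both, so no cell was assigned to G0+T or G4+T, and the classes are used as the authors deposited them.

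Adenomas of Apcmin mice form when the remaining Apc allele is lost and beta-catenin is no longer degraded. Beta-catenin then drives Wnt target genes through TCF factors, and several of these targets are inhibitors of the pathway. Axin2 is a scaffold of the complex that degrades beta-catenin, Nkd1 is an intracellular inhibitor that binds Dishevelled, Notum is an enzyme that removes the lipid from Wnt proteins, and Wif1 is a secreted protein that binds Wnt ligands. In intestinal tumors these inhibitors mark the mutant cells against their normal neighbours. When chromosomes are missegregated or telomeres become short, the p53 pathway can be engaged, and its targets arrest the cell cycle or prime the cell for death.

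Cancer_cell_1 made up nearly the same share of the epithelium in both classes, 549 of 1316 CIN_high cells (41.7%, 95% interval 39.0 to 44.4) and 710 of 1725 CIN_low cells (41.2%, 38.8 to 43.5; exact Clopper-Pearson). All intervals given here cover counting error only. The median cell held 13254 UMIs and 3842 genes in CIN_high, and 14745.5 UMIs and 4192 genes in CIN_low, and mitochondrial genes took a median of 12.4% of the UMIs in CIN_high and 10.7% in CIN_low. Cancer_cell_1 cells held 8035000 UMIs in all in CIN_high and 11834379 in CIN_low. A doublet caller marked 1 Cancer_cell_1 cell in each class. With 1 library a class there is no replicate check, so no p-value is given, and a difference between the classes cannot be told apart from one between mice, tumor pieces or preparations. A level is the sum of a gene's UMIs per 10000 UMIs of the Cancer_cell_1 cells of a library, and 1.5-fold was the line for calling a gene higher or lower.

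The annotated name was checked against its markers. Epcam, an adhesion molecule of all intestinal epithelium, stood at 27.4 UMIs per 10000 in CIN_high Cancer_cell_1 cells and 31.5 in CIN_low Cancer_cell_1 cells, close to Stem_cell_1 at 29.9 in CIN_high and 31.5 in CIN_low. Axin2 had a level of 2.58 in CIN_high and 2.61 in CIN_low Cancer_cell_1 cells, against 2.05 and 1.59 in CIN_high and CIN_low Stem_cell_1 cells. Nkd1 stood at 4.96 in CIN_high and 6.18 in CIN_low Cancer_cell_1 cells, against 0.675 and 1.30 in CIN_high and CIN_low Stem_cell_1 cells. Both levels were thus above those of Stem_cell_1 in each library, but of these 2 genes only Nkd1 passed the 1.5-fold line in both libraries. Enterocytes, mature absorptive cells, served as the subtype that should lack the Wnt genes. Notum stood at 2.22 in CIN_high and 2.37 in CIN_low Cancer_cell_1 cells, against 0.030 and 0.012 in CIN_high and CIN_low enterocytes. Wif1 stood at 5.90 in CIN_high and 7.03 in CIN_low Cancer_cell_1 cells, against 0.150 and 0.060 in CIN_high and CIN_low enterocytes. The order of the levels was the same for Nkd1, Notum and Wif1 in both classes: p57+_cancer_cell above Cancer_cell_1, then the Proliferating and Stem_cell_1 subtypes, then enterocytes. Cancer_cell_1 was thus not the subtype with the most Wnt feedback RNA: p57+_cancer_cell, named for Cdkn1c (p57), had Wif1 at 8.79 in CIN_high and 10.3 in CIN_low, and Nkd1 at 9.02 in CIN_high and 10.2 in CIN_low.

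**Figure D1:**
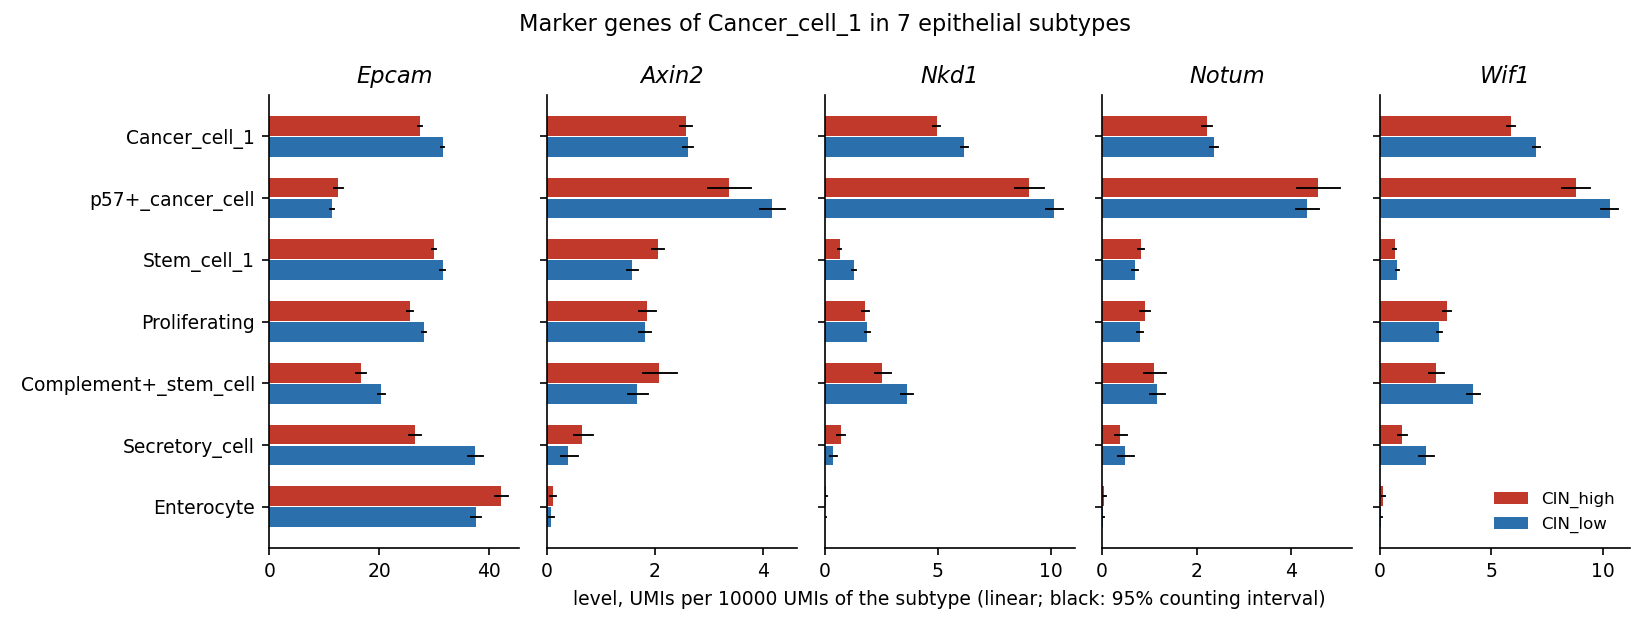
Level of the 5 marker genes in UMIs per 10000 (horizontal axes, starting at 0) in 7 epithelial subtypes, with CIN_high bars above CIN_low bars and black lines for the 95% counting interval. Wif1 stood at 5.90 in CIN_high and 7.03 in CIN_low Cancer_cell_1 cells and was exceeded by p57+_cancer_cell cells, while Epcam was present in every subtype.

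The markers were carried by most cells and not by a few. To compare shares at 1 depth, each cell was thinned to 5000 UMIs, which left 510 CIN_high and 688 CIN_low cells. At least 1 UMI of Wif1 was then found in 78.6% of CIN_high and 86.6% of CIN_low Cancer_cell_1 cells, against 4.55% of CIN_high and 5.41% of CIN_low enterocytes thinned to the same depth. Without thinning the Wif1 shares in Cancer_cell_1 were 88.3% in CIN_high and 95.9% in CIN_low. Notum was found after thinning in 60.2% of CIN_high and 63.1% of CIN_low cells against 2.27% of CIN_high and 2.70% of CIN_low enterocytes, and without thinning in 84.7% of CIN_high and 89.3% of CIN_low Cancer_cell_1 cells. All 4 of Axin2, Nkd1, Notum and Wif1 were seen together in 153 of the 510 CIN_high cells (30.0%) and 248 of the 688 CIN_low cells (36%). None of the 4 was seen in 15 CIN_high cells (2.94%) and 7 CIN_low cells (1.02%), so cells without any trace of this program were few in both libraries.

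What set Cancer_cell_1 apart from the other epithelial cells was read within each library. The subtypes were drawn by the authors from the expression of these same cells, so these values describe the subtype and are no test. Of 10534 measured genes, 560 (5.32%) were at least 1.5-fold higher in both libraries than in all other epithelial cells pooled, and 1032 (9.80%) were at least 1.5-fold lower. Genes were ranked by the smaller ratio of both libraries. Among the 12 ranked highest, Erich3 stood at 1.33 UMIs per 10000 in CIN_high Cancer_cell_1 cells against 0.369 in the other CIN_high epithelial cells (3.62-fold), and at 1.74 in CIN_low Cancer_cell_1 cells against 0.609 in the others (2.86-fold). Prox1, a homeobox factor and a Wnt target in colon tumors, stood at 4.05 in CIN_high Cancer_cell_1 cells against 1.32 in the other CIN_high epithelial cells, and at 5.82 against 2.46 in CIN_low. Others among the 12 were Kif26b, Rnf32, Ttbk2, Dbn1, Cfi, Spock2, Htra1, Rem2 and Wif1. The ratios of these named genes lay between 2.23 for Wif1 in CIN_low and 3.62 for Erich3 in CIN_high, with p57+_cancer_cell cells, which had more Wif1, Prox1 and Spock2 than Cancer_cell_1, among the pooled others.

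Genes of differentiated and dividing epithelium were lower in Cancer_cell_1 than in the other epithelial cells pooled. Lypd8, a protein of colonocytes that keeps flagellated bacteria off the epithelium, stood at 0.304 in CIN_high Cancer_cell_1 cells against 17.8 in the other CIN_high epithelial cells (58.7-fold lower), and at 0.297 against 13.7 in CIN_low (46.2-fold lower). Muc2, the secreted mucin of goblet cells, was 73.4-fold lower in CIN_high and 30.3-fold lower in CIN_low. Of 22 measured G2/M genes, all 22 were at least 1.5-fold lower in both libraries, and 19 of 21 S phase genes were. Colonocyte genes were lower for 12 of 16 members, goblet genes for 8 of 10 and MHC class II genes for 7 of 7, and no member of these lists was higher. The pooled others include the Proliferating subtype. Between subtypes a gene was measured by its average over both groups, so it could enter through the group where it was high. In Cancer_cell_1 alone, 8 of 22 G2/M genes and 17 of 22 S phase genes reached the level of 0.05. The counts of these lists between subtypes are therefore partly set by this filter. Against Stem_cell_1 alone, 2 of 8 measured G2/M genes and 0 of 17 S phase genes were lower, beside 7.56% of all genes. Against p57+_cancer_cell, 5 of 5 G2/M, 6 of 16 S phase and 5 of 6 MHC class II genes were higher, beside 7.96% of all genes. Mki67, which marks cycling cells, stood at 0.180 in CIN_high and 0.262 in CIN_low Cancer_cell_1 cells, against 5.98 in CIN_high and 7.57 in CIN_low Proliferating cells. Cancer_cell_1 therefore held little RNA of mucus, of absorptive colonocytes or of mitosis in either library. Wnt feedback genes were split: Nkd1, Prox1, Tnfrsf19 and Tcf4 were higher in both libraries and Cd44, Lrig1 and Slc12a2 were lower, among 22 measured members.

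Against Stem_cell_1, the next largest subtype, 858 of 10177 measured genes (8.43%) were higher in both libraries and 769 (7.56%) were lower. The secreted Wnt antagonists carried the clearest difference, with 5 of 6 measured members higher and a median log2 ratio of 2.28 in CIN_high and 2.30 in CIN_low. Mt3, a metallothionein otherwise known from the brain, stood at 2.58 in CIN_high Cancer_cell_1 cells against 0.0614 in CIN_high Stem_cell_1 cells (42.0-fold), and at 2.91 against 0.146 in CIN_low (20.0-fold). Spock2, a secreted extracellular matrix proteoglycan, was 57.3-fold higher in CIN_high and 36.4-fold higher in CIN_low. Vim, the intermediate filament of mesenchymal cells, stood at 3.02 in CIN_high Cancer_cell_1 cells against 0.167 in CIN_high Stem_cell_1 cells, and at 4.77 against 0.324 in CIN_low. Pnliprp1, Tesc and Mdga2 completed the 6 largest ratios. Fetal-like and regenerative genes ran the other way, with 11 of 19 measured members lower in Cancer_cell_1 and a median log2 ratio of -1.67 in CIN_high and -1.05 in CIN_low. Ly6a (Sca-1), the best known of them, stood at 2.43 in CIN_high and 1.53 in CIN_low Cancer_cell_1 cells, against 13.3 in CIN_high and 13.6 in CIN_low Stem_cell_1 cells. Clu, which marks revival stem cells, stood at 2.64 in CIN_high and 1.80 in CIN_low Cancer_cell_1 cells, against 6.59 in CIN_high and 2.59 in CIN_low Stem_cell_1 cells. Type I interferon genes were lower for 16 of 26 members and MHC class II genes for 7 of 7. The retinoic acid synthesizing enzyme Aldh1a3 was 66.8-fold lower in CIN_high and 46.2-fold lower in CIN_low. The name Stem_cell_1 did not follow Lgr5, the receptor that marks crypt base stem cells: Lgr5 stood at 0.953 in CIN_high and 0.877 in CIN_low Cancer_cell_1 cells, against 1.08 in CIN_high and 0.635 in CIN_low Stem_cell_1 cells.

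Against p57+_cancer_cell, 834 of 10475 measured genes (7.96%) were higher in both libraries and 1015 (9.69%) were lower. Colonocyte genes were higher in Cancer_cell_1 for 6 of 11 measured members and lower for none, and deep crypt and Paneth-like genes were higher for 4 of 9 and lower for Lyz1 and Pnliprp2. Lgals4, a galectin of the intestinal surface, stood at 4.88 in CIN_high Cancer_cell_1 cells against 0.367 in CIN_high p57+_cancer_cell cells (13.3-fold), and at 4.58 against 0.292 in CIN_low (15.7-fold). Reg3g, an antibacterial lectin, was 16.3-fold higher in CIN_high and 18.3-fold higher in CIN_low. Crypt stem genes were higher in Cancer_cell_1 for 8 of 17 measured members, Lgr5, Ascl2 and Prom1 among them, and lower for 1, and fetal-like genes were higher for 9 of 18. The secreted Wnt antagonists were lower for 4 of 6 members and higher for none. Apcdd1, a membrane-bound inhibitor of Wnt signalling, stood at 0.307 in CIN_high and 0.633 in CIN_low Cancer_cell_1 cells, against 3.70 in CIN_high and 5.13 in CIN_low p57+_cancer_cell cells. Cdkn1c stood at 0.616 in CIN_high and 1.21 in CIN_low Cancer_cell_1 cells, against 5.35 in CIN_high and 4.97 in CIN_low p57+_cancer_cell cells. Among the lowest ratios were those of Rab3c, a GTPase of secretory vesicles, which was 352-fold lower in CIN_high and 457-fold lower in CIN_low. Npy, a neuropeptide, was 1856-fold lower in CIN_high and 215-fold lower in CIN_low. These folds are imprecise, because Cancer_cell_1 cells gave 2 UMIs of Rab3c in each class. Npy gave 1 UMI in CIN_high and 10 in CIN_low Cancer_cell_1 cells. Of 22 measured Wnt feedback genes, 7 were lower in Cancer_cell_1 than in p57+_cancer_cell and 5 were higher, namely Ascl2, Ccnd1, Lrig1, Slc12a2 and Mmp7. Against the Proliferating subtype, 1437 of 10293 measured genes (14.0%) were higher in both libraries and 1253 (12.2%) were lower. The Wnt ligand Wnt6 stood at 0.660 in CIN_high Cancer_cell_1 cells against 0.109 in CIN_high Proliferating cells, and at 0.795 against 0.0639 in CIN_low, and all 6 measured Wnt antagonists were higher in Cancer_cell_1.

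Tert, the gene of the engineered allele, gave 0 UMIs in the 549 CIN_high Cancer_cell_1 cells. At a floor of 3 cells this allows a share of up to 0.546% of cells with a UMI, and the exact upper limit is 0.670%. The CIN_low cells gave 38 UMIs in 37 of 710 cells (5.21%, 3.70 to 7.11). At a floor of 3 UMIs over the CIN_high cells, the level was at least 8.60-fold lower in CIN_high. The same split was seen in other subtypes, with 0 UMIs in CIN_high and 15 in CIN_low Stem_cell_1 cells, and 0 in CIN_high and 16 in CIN_low p57+_cancer_cell cells. Enterocytes gave 0 UMIs in both classes. The deposited values do not separate RNA of the native Tert gene from that of the LSL-mTERT allele.

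Between the classes, most genes of Cancer_cell_1 cells were within the 1.5-fold line, and p53 targets were the list with the most members above it. Of 10199 measured genes, 264 (2.59%) were at least 1.5-fold higher in CIN_high and 353 (3.46%) at least 1.5-fold lower, 617 (6.05%) either way, and the median gene had a log2 ratio of -0.07. With cells thinned to 5000 UMIs these counts became 415 higher and 711 lower, and at a minimum level of 0.2 they became 87 and 109. The subtype's own markers were within the line. Of these 5, Nkd1 was furthest from 1, at a ratio of 0.802 (0.772 to 0.834). Axin2 was at a ratio of 0.988 (95% interval 0.934 to 1.04), Notum at 0.936 (0.882 to 0.994), Wif1 at 0.839 (0.810 to 0.870) and Epcam at 0.869 (0.854 to 0.883). Apc itself stood at 1.32 in CIN_high and 1.37 in CIN_low, a ratio of 0.963 (0.891 to 1.04), and Lgr5 was at 1.09 (0.989 to 1.19). The RNA of Apc was counted whether or not it came from the Apcmin allele, so this level does not read the loss of the other allele.

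More p53 targets were past the line in CIN_high than not. Of 32 listed genes, 29 were measured, 17 were at least 1.5-fold higher, none was at least 1.5-fold lower, and 28 had a ratio above 1. The list's median log2 ratio was 0.85, beside -0.07 over all measured genes, of which 2.59% were at least 1.5-fold higher. Summed over the list, the level came to 33.5 in CIN_high and 22.0 in CIN_low. That these targets were higher in CIN_high was known for the epithelium as a whole when the list was written, so the list's count is not separate evidence of its direction.

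Cdkn1a (p21), which blocks cyclin-dependent kinases, stood at 5.34 in CIN_high and 2.48 in CIN_low, a ratio of 2.16 (2.06 to 2.26). Ccng1, a cyclin G that recruits a phosphatase to Mdm2, stood at 1.70 in CIN_high and 0.581 in CIN_low (2.92-fold, 2.66 to 3.21). Mdm2, the ligase that degrades p53, stood at 1.01 in CIN_high and 0.638 in CIN_low (1.59-fold). Feedback and arrest targets were therefore higher together in the CIN_high library. Phlda3, which restrains the kinase Akt, stood at 1.64 in CIN_high and 0.662 in CIN_low (2.48-fold, 2.27 to 2.71), and Zmat3, an RNA-binding protein, at 0.785 in CIN_high and 0.386 in CIN_low (2.03-fold). Among the death genes, Bax, the pore-forming effector at mitochondria, stood at 4.29 in CIN_high and 2.69 in CIN_low (1.60-fold, 1.52 to 1.68). Bbc3 (Puma) stood at 0.427 in CIN_high and 0.237 in CIN_low, and the death receptor Tnfrsf10b at 0.256 in CIN_high and 0.137 in CIN_low. The largest ratios belonged to genes of low level: Ddit4l, a regulator of mTOR signalling, stood at 0.273 in CIN_high and 0.0794 in CIN_low (3.43-fold, 2.68 to 4.42), and Eda2r, a receptor of the TNF family, at 0.409 in CIN_high and 0.127 in CIN_low (3.23-fold). The repair genes Polk and Ercc5 were 2.73-fold and 2.11-fold higher. Not every target passed the line: Btg2 stood at 5.68 in CIN_high and 5.40 in CIN_low, Gdf15 at 1.46 in CIN_high and 1.24 in CIN_low, Pmaip1 (Noxa) had a ratio of 1.14, and Gadd45a had 0.876.

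**Figure D2:**
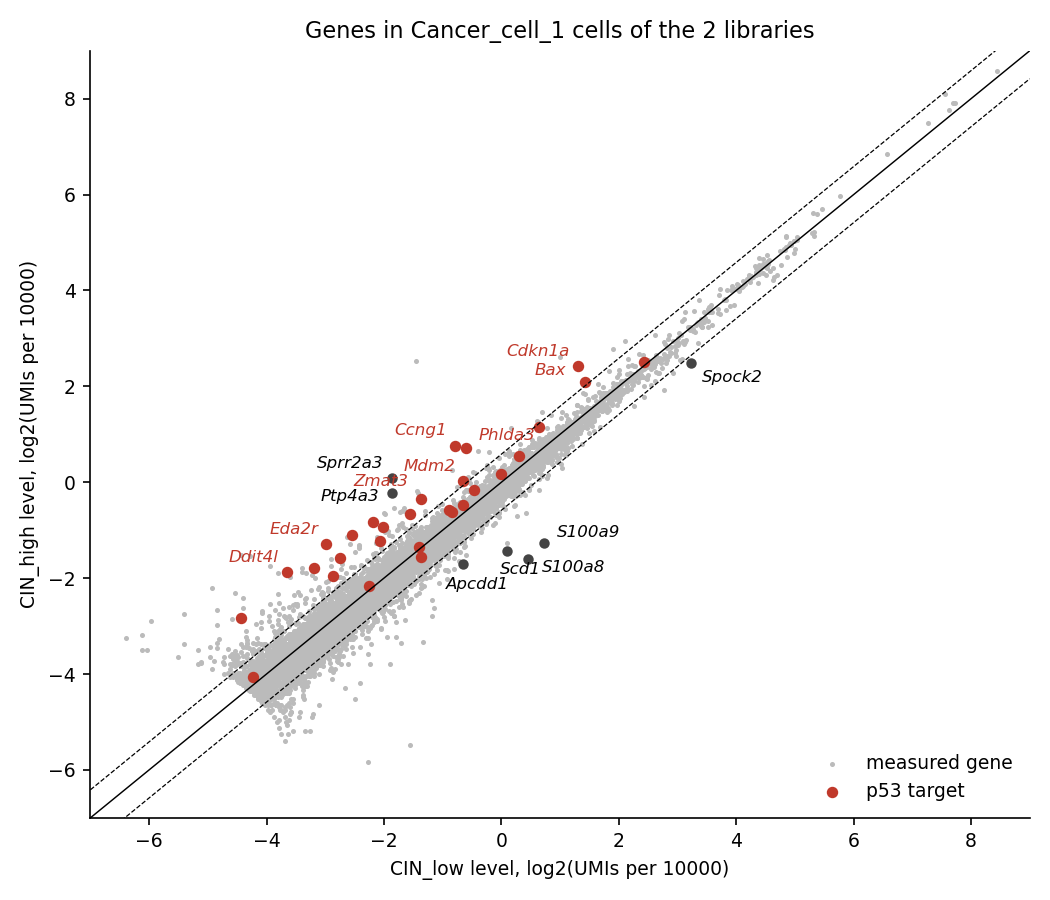
Level of each measured gene with a UMI in both classes in Cancer_cell_1 cells, as log2 of UMIs per 10000, in CIN_low (horizontal) and CIN_high (vertical), with p53 targets in red, the solid line at equal levels and dashed lines at 1.5-fold. Most genes lie within the dashed lines, and Cdkn1a, Ccng1, Phlda3 and Bax lie above them while S100a8, S100a9 and Scd1 lie below.

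The promoters of 4 of the p53 targets are printed because they carry the letters of the p53 half-site, the 10-base motif of which p53 binds a pair. They run from 250 bases before to 50 bases after the transcription start in RefSeq on GRCm38.p6, in the direction of transcription, with every match to the half-site consensus on either strand in capitals. Cdkn1a lies on the plus strand at chr17:29090729-29091028, Mdm2 on the minus strand at chr10:117710709-117711008, Ccng1 on the minus strand at chr11:40755237-40755536 and Ddit4l on the plus strand at chr3:137623422-137623721.
Cdkn1a: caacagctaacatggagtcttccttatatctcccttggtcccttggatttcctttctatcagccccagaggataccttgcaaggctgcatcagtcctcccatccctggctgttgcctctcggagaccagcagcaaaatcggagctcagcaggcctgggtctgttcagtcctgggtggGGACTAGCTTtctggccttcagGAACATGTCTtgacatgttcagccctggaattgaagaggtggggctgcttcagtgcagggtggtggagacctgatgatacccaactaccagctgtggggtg
Mdm2: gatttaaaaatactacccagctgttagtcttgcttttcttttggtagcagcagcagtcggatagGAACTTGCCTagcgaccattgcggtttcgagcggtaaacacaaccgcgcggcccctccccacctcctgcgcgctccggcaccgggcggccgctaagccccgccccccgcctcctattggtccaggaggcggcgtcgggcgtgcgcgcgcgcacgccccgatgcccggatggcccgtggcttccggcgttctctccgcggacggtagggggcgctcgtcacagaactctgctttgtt
Ccng1: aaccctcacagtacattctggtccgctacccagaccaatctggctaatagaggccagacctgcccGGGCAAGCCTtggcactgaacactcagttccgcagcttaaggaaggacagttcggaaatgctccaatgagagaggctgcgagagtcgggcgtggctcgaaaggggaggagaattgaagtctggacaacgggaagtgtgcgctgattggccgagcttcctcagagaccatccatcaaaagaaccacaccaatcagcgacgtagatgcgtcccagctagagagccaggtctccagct
Ddit4l: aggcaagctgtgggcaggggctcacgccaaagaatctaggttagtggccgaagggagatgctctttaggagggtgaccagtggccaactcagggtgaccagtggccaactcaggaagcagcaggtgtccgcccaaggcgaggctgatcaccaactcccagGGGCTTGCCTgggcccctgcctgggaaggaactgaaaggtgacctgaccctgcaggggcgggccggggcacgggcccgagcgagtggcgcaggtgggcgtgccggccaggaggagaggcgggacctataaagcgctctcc
The printed Cdkn1a window holds a pair of matches, at bases -73 to -64 and -51 to -42 from its start. Cdkn1a has another annotated start, whose window at chr17:29093519-29093818 held 0 matches. Mdm2, Ccng1 and Ddit4l hold 1 each, at -186 to -177, -185 to -176 and -90 to -81. Of the 29 measured p53 targets, 22 were found in the promoter table by symbol, and 10 of these (45.5%) held a match, beside 2582 of 27025 genes (9.55%) in windows of the same length. Among the matched targets at least 1.5-fold higher in CIN_high, 7 of 14 (50.0%) held a match, and among the others 3 of 8 (37.5%) did. A match describes letters in this window and is no evidence of binding in these cells.

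Across single cells the whole distribution of the p53 targets lay higher in CIN_high. After thinning to 5000 UMIs, the 29 measured targets gave a mean of 16.9 UMIs per cell in CIN_high and 11.2 in CIN_low, with a median of 16 in CIN_high and 10 in CIN_low. The tails moved unequally: the cells with the fewest target UMIs lay at 6 in CIN_high and 5 in CIN_low at the 10th percentile, and those with the most at 28 in CIN_high and 19 in CIN_low at the 90th. The ranges overlapped widely, and 1 cell in each class had none. At least 1 UMI of Cdkn1a was seen after thinning in 77.6% of CIN_high cells (73.8 to 81.2) and 57.1% of CIN_low cells (53.3 to 60.9), and without thinning in 88.5% of CIN_high and 76.8% of CIN_low cells.

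**Figure D3:**
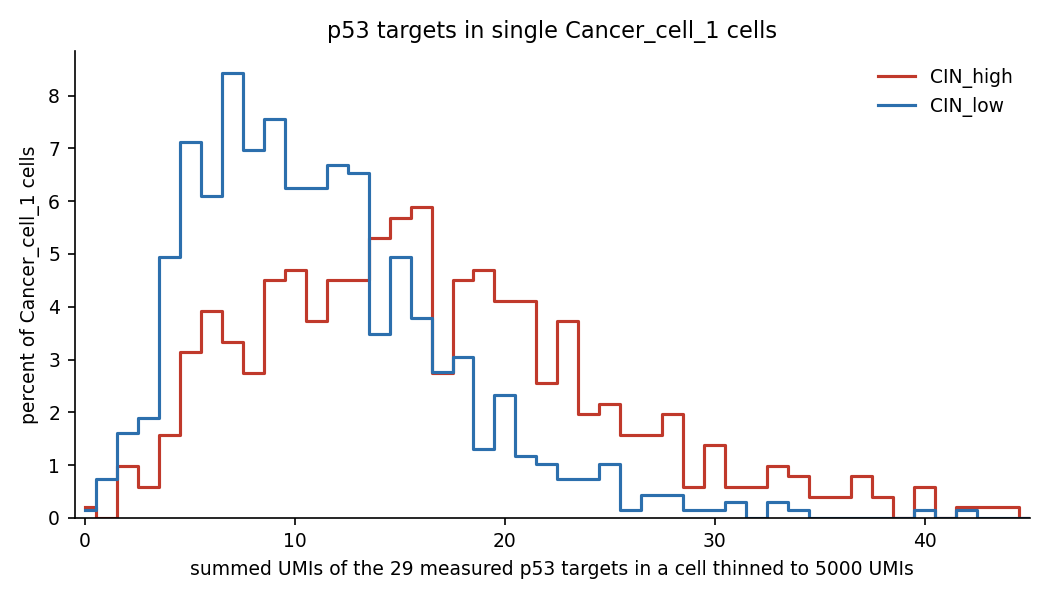
Histogram of the summed UMIs of the 29 measured p53 targets per Cancer_cell_1 cell after thinning to 5000 UMIs (horizontal axis, UMIs per cell), as percent of the cells of each class (vertical axis). The CIN_high outline is displaced to the right of the CIN_low outline, with a mean of 16.9 UMIs in CIN_high and 11.2 in CIN_low, and the outlines overlap widely.

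The p53 ratio was set beside that of the other subtypes. The median log2 ratio of the targets was 0.85 in Cancer_cell_1, 0.66 in Stem_cell_1 with 16 of 30 members higher, 0.18 in p57+_cancer_cell cells, 0.22 in Proliferating cells and 0.26 in enterocytes. Over all genes measured in each, the share at least 1.5-fold higher in CIN_high was 3.96% in Stem_cell_1, 6.64% in p57+_cancer_cell cells, 3.75% in Proliferating cells and 6.01% in enterocytes. Cdkn1a had a log2 ratio larger in Cancer_cell_1 than in Stem_cell_1 by 0.20 (0.098 to 0.307) and larger than in Proliferating cells by 0.74, in p57+_cancer_cell cells by 0.49 and in enterocytes by 0.95. Ccng1 was larger than in Stem_cell_1 by 0.13, with an interval of -0.088 to 0.340 that includes 0. The order of Cancer_cell_1 and Stem_cell_1 by list median is not firm: the difference of 0.187 became -0.018 with a mean over cells and -0.081 after thinning. Per thinned cell, Stem_cell_1 had 16.0 UMIs in CIN_high and 11.1 in CIN_low, nearly those of Cancer_cell_1. p57+_cancer_cell cells, which share the Wnt genes, had 11.1 in CIN_high and 10.8 in CIN_low.

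Type I interferon genes were also mostly above a ratio of 1, with 22 of 23 measured members above 1, 7 at least 1.5-fold higher, none at least 1.5-fold lower and a median log2 ratio of 0.31. The 7 stand beside 2.59% of all measured genes, and became 3 at a minimum level of 0.2. Irf7, the factor that amplifies the interferon response, stood at 0.407 in CIN_high and 0.167 in CIN_low (2.43-fold, 2.03 to 2.92), and the antiviral gene Rsad2 at 0.116 in CIN_high and 0.0490 in CIN_low (2.36-fold). Isg15, a ubiquitin-like modifier, stood at 0.498 in CIN_high and 0.292 in CIN_low (1.70-fold). No member of a list of DNA sensing genes passed the line, with 6 of 10 measured. The medians in Stem_cell_1 and Proliferating cells were 0.55 and 0.25, and in p57+_cancer_cell cells and enterocytes they were -0.13 and -0.24. Per thinned cell the list gave 5.33 UMIs in CIN_high and 4.29 in CIN_low Cancer_cell_1 cells.

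Among the 12 ranked genes with the largest ratios, several were not on the list of p53 targets used here. Sprr2a3, a small proline-rich protein, stood at 1.06 in CIN_high and 0.275 in CIN_low (3.84-fold, 3.37 to 4.37), and Ptp4a3 (PRL-3), a phosphatase associated with colon cancer metastasis, at 0.859 in CIN_high and 0.275 in CIN_low (3.13-fold, 2.74 to 3.58). The metallothionein Mt1 stood at 6.86 in CIN_high and 3.74 in CIN_low (1.83-fold). Glutathione and oxidative stress genes were higher for 4 of 22 measured members, beside 2.59% of all genes, and lower for none: Gsta3 and Gsta4, which conjugate glutathione, were 2.30-fold and 2.15-fold higher, Gpx2, the glutathione peroxidase of the gut epithelium, stood at 7.68 in CIN_high and 4.28 in CIN_low, and Nqo1 at 0.0747 in CIN_high and 0.0372 in CIN_low. The median log2 ratio of the list was 0.11. Fetal-like genes were higher for 5 of 18 members and lower for 1, with a median of 0.10, and the 5 became 3 with a mean over cells, where the median was -0.03, or at a minimum level of 0.2. Anxa3 stood at 0.691 in CIN_high and 0.281 in CIN_low (2.45-fold), Cd55 at 0.401 in CIN_high and 0.187 in CIN_low (2.15-fold), and Ccn1 (Cyr61), a target of Yap, at 1.11 in CIN_high and 1.74 in CIN_low. Clu was at 1.47 (1.38 to 1.56), just inside the line. Reg3b, an antibacterial lectin, stood at 1.19 in CIN_high and 0.556 in CIN_low, Car2 (carbonic anhydrase 2) at 0.885 in CIN_high and 0.371 in CIN_low, and the sugar reductase Dcxr at 1.58 in CIN_high and 0.755 in CIN_low. In Stem_cell_1 the log2 ratios were 0.12 for Reg3b, -0.064 for Car2 and 1.45 for Dcxr.

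Of 23 measured cholesterol and fatty acid genes, 4 were at least 1.5-fold lower, none was higher, 3 had a ratio above 1, and the median log2 ratio was -0.40, beside a background of 3.46% of all genes called lower. Scd1, which desaturates stearoyl-CoA, stood at 0.370 in CIN_high and 1.06 in CIN_low (2.88-fold lower, 2.53 to 3.27), and its relative Scd2 at 4.86 in CIN_high and 7.59 in CIN_low. Srebf1, the factor that drives fatty acid synthesis, stood at 0.554 in CIN_high and 0.932 in CIN_low (1.68-fold lower). Hmgcs1, an early enzyme of cholesterol synthesis, stood at 1.57 in CIN_high and 2.16 in CIN_low, inside the line. The list was lower in Stem_cell_1 too, for 14 of 23 members with a median of -0.68, beside 5.70% of all genes measured there. It was lower for 6 members in Proliferating cells and 5 in enterocytes, beside 5.23% of all genes measured in Proliferating cells and 10.1% of those in enterocytes. In p57+_cancer_cell cells 3 of 23 members were lower, near the 11.5% of all genes measured there, with a median of -0.19. S phase genes were lower for 6 of 17 members, beside the same 3.46% of all genes, 1 had a ratio above 1, and the median was -0.32. The 6 became 3 with a mean over cells, 1 at a minimum level of 0.2 and 2 without cells holding a UMI of Mki67 or Top2a. Mcm6, a subunit of the replicative helicase, stood at 0.126 in CIN_high and 0.215 in CIN_low, and Mcm5 and Mcm3 had ratios of 0.613 and 0.623. G2/M genes were mostly too low to measure, with 8 of 22 measured and 1 at least 1.5-fold lower. A UMI of Mki67 or Top2a was found after thinning in 12.4% of CIN_high and 13.4% of CIN_low cells.

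**Figure D4:**
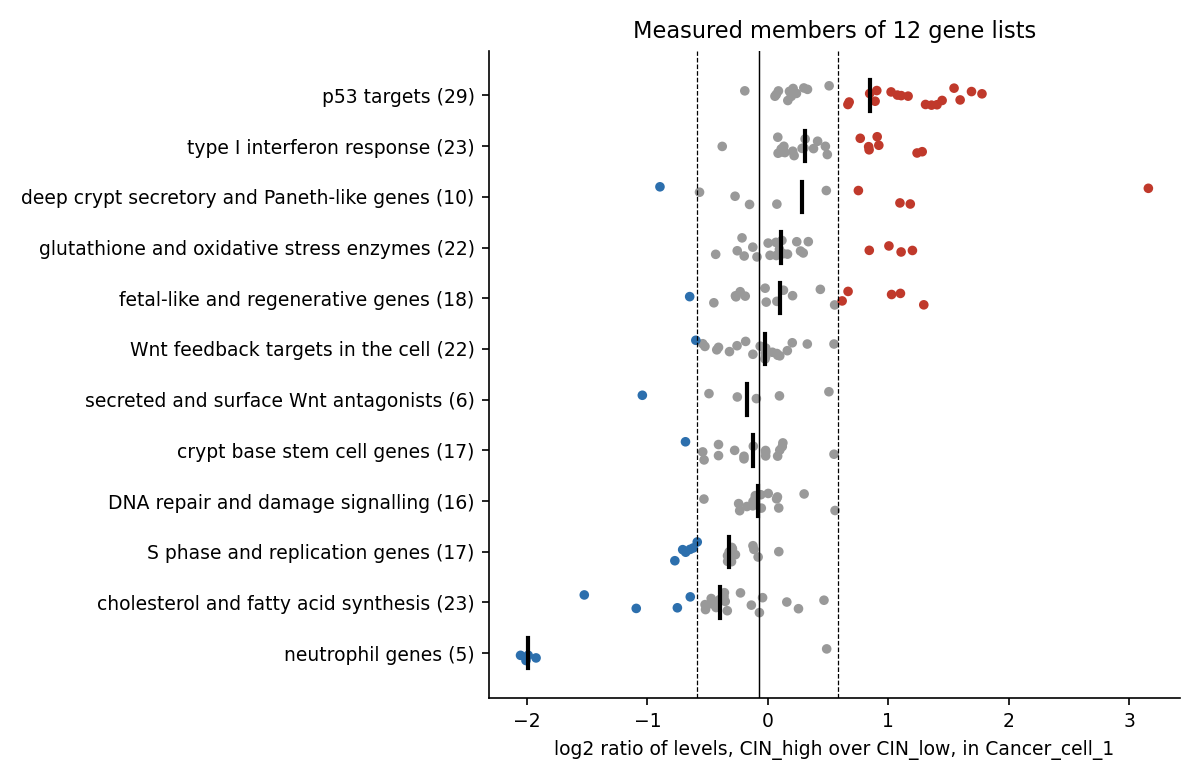
Log2 ratio of CIN_high over CIN_low in Cancer_cell_1 cells (horizontal axis) for the measured members of 12 gene lists (rows), with red points at least 1.5-fold higher, blue points at least 1.5-fold lower, black bars at list medians, the solid line at the median of all genes and dashed lines at 1.5-fold. The p53 targets have a median of 0.85, and the cholesterol and fatty acid genes one of -0.40.

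Within the Wnt program the classes differed in single genes and not as a group. Of 22 measured Wnt feedback genes none was at least 1.5-fold higher and 1 was at least 1.5-fold lower, and the median log2 ratio was -0.021. That member was Myc, the growth-promoting factor, at 0.381 in CIN_high and 0.576 in CIN_low. Cd44, a hyaluronan receptor, stood at 1.22 in CIN_high and 0.836 in CIN_low, and the cyclin Ccnd1 at 3.08 in CIN_high and 2.45 in CIN_low, both inside the line. Among the secreted and surface antagonists 1 of 6 measured members passed the line: Apcdd1 was 2.06-fold lower in CIN_high (1.78 to 2.39). Dkk2, a secreted inhibitor of the Wnt co-receptor, ran the other way at 1.56 in CIN_high and 1.10 in CIN_low (1.42-fold, 1.31 to 1.54), and Dkk3 stood at 0.207 in CIN_high and 0.290 in CIN_low. Of the genes with a higher level in p57+_cancer_cell cells than in Cancer_cell_1, Spock2 was 1.68-fold lower in CIN_high Cancer_cell_1 cells, Cdkn1c was 1.96-fold lower (1.77 to 2.17), and Prox1 had a ratio of 0.696, inside the line. A UMI of Cdkn1c was seen after thinning in 16.3% of CIN_high and 29.7% of CIN_low cells, and without thinning in 25.0% of CIN_high and 47.0% of CIN_low cells. Of 17 measured crypt stem genes 1 was at least 1.5-fold lower and none was higher, that 1 being Cdca7 at 0.245 in CIN_high and 0.394 in CIN_low. Smoc2, a matrix protein of crypt base stem cells, stood at 1.48 in CIN_high and 2.14 in CIN_low, and Ascl2, the factor that specifies them, at 0.202 in CIN_high and 0.293 in CIN_low.

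Genes of differentiated lineages passed the line in both directions, beside 2.59% of all measured genes higher and 3.46% lower. Of 10 measured deep crypt secretory and Paneth-like genes, 4 were higher and 1 lower, with a median log2 ratio of 0.28. Defa24, an alpha-defensin, had 85 UMIs in CIN_high and 14 in CIN_low, and Lyz1, the lysozyme of Paneth cells, stood at 0.251 in CIN_high and 0.111 in CIN_low. The Notch ligand Dll4, the lower member, stood at 0.0622 in CIN_high and 0.116 in CIN_low. Of 12 measured colonocyte genes, 4 were higher and 2 lower. Ceacam1, an adhesion molecule of the brush border, stood at 0.658 in CIN_high and 0.309 in CIN_low, and Guca2b, the precursor of uroguanylin, at 0.164 in CIN_high and 0.313 in CIN_low. Cdx1, a homeobox factor of intestinal identity, stood at 0.162 in CIN_high and 0.450 in CIN_low. Krt20, a keratin of mature colonocytes, had 16 UMIs in CIN_high and 65 in CIN_low, and Muc2 had 44 in CIN_high and 35 in CIN_low, so both remained near 0 in Cancer_cell_1.

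Other gene groups had no or few members past the 1.5-fold line. None of the measured members of the glycolysis (22), unfolded protein response (14), telomere maintenance (14), DNA repair (16), EGF family (10), BMP and Id (10) and MHC class I (14) lists passed the line in either direction, and their median log2 ratios lay between -0.12 and 0.029. NF-kB targets had 2 of 22 members higher and 2 lower, beside 2.59% of all measured genes higher and 3.46% lower. Cxcl10, a chemokine, stood at 0.231 in CIN_high and 0.478 in CIN_low, and the chemokine Cxcl5 at 0.536 in CIN_high and 0.298 in CIN_low. Ccl2 had 108 UMIs in CIN_high and 19 in CIN_low, but they came from 3.46% of CIN_high and 2.25% of CIN_low cells. Among immediate early genes 1 of 16, Fos, was lower, and among heat shock genes 2 of 10, Hspa1a and Hspa1b, were, beside the same 3.46%. Heat shock genes were lower in Stem_cell_1 too, for 4 of 10 members, beside 5.70% of all genes measured there.

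RNA of other cell types moved with the classes and was measured beside these results. S100a8 and S100a9, abundant neutrophil proteins, had the lowest ratios among the ranked genes: S100a8 stood at 0.329 in CIN_high and 1.36 in CIN_low Cancer_cell_1 cells (4.15-fold lower) and S100a9 at 0.413 in CIN_high and 1.66 in CIN_low (4.02-fold lower). A UMI of S100a8 was present in 35.3% of CIN_high and 86.6% of CIN_low Cancer_cell_1 cells, and in 32.9% of CIN_high and 83.3% of CIN_low T and NK cells, which do not express it and whose median depth was 3442 UMIs in CIN_high and 3666 in CIN_low. The S100a8 shares in Cancer_cell_1 were thus close to those in T and NK cells and are not read as expression in Cancer_cell_1. Whether this RNA came from the background of each library was not tested. Of 5 measured neutrophil genes 4 were at least 1.5-fold lower in CIN_high, with a median log2 ratio of -1.99, and of 7 macrophage genes 3 were, with a median of -0.58. Ptprc (CD45), the defining gene of leukocytes, stood at 0.0373 in CIN_high and 0.0634 in CIN_low. C1qa was present in 6.92% of CIN_high and 11.7% of CIN_low Cancer_cell_1 cells and in 7.27% of CIN_high and 11.6% of CIN_low T and NK cells. Among the lymphocyte markers Cd3e had 1 UMI in each class and Ms4a1 had 0 in each, but Trac had 54 UMIs in 6.56% of CIN_high cells and 103 in 11% of CIN_low cells, and Cd79a had 23 in CIN_high and 27 in CIN_low. Among the stromal markers Dcn had 25 in CIN_high and 8 in CIN_low, and Rgs5 had 71 in CIN_high and 18 in CIN_low, both higher in CIN_high. Pdgfrb had 0 in CIN_high and 2 in CIN_low, Col1a1 and Kdr had 5 in each class, Cdh5 had 21 in CIN_high and 28 in CIN_low, and the other markers of these cells had between 1 and 19. The immunoglobulin gene Igkc, which plasma cells make, stood at 0.0224 in CIN_high and 0.341 in CIN_low. The part of such RNA in the ratios of genes that leukocytes also express, such as Cd74, Ifitm1 at 3.79 in CIN_high and 6.83 in CIN_low, Il1b or Cxcl10, was not tested.

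The genes that varied most between cells of a class were of different kinds, some carried by nearly every cell and some by few. Of 7903 genes examined after thinning, 209 had a variance over 2 times the mean in both libraries, while the median gene had a ratio of 1.08 in each. Malat1, a nuclear long noncoding RNA, ranked first, with a variance of 152 times its mean in CIN_high and 105 times in CIN_low and UMIs in nearly every cell. Neat1, the RNA scaffold of paraspeckles, had 14.8 in CIN_high and 13.6 in CIN_low, and S100a6, a calcium-binding protein, had 14.5 in CIN_high and 11.5 in CIN_low, and both were also carried by nearly every cell. These abundant RNAs stand beside genes that few cells carried. Pyy, a hormone of enteroendocrine L cells, had a variance of 33.2 times its mean in CIN_high and 40.1 times in CIN_low, with UMIs in 3.33% of CIN_high and 4.36% of CIN_low cells. Mptx2, a pentraxin of Paneth cells, had 16.8 in CIN_high and 78.4 in CIN_low, with UMIs in 1.76% and 3.49% of CIN_high and CIN_low cells. Rare cells with RNA of secretory lineages were thus present in both libraries. Wfdc18, a small secreted whey acidic protein, was spread differently: its variance was 29.9 times its mean in CIN_high and 37.2 times in CIN_low although 84.9% of CIN_high and 85.6% of CIN_low cells carried it. Nupr1, a stress-induced chromatin protein, had 9.0 in CIN_high and 9.71 in CIN_low, and was carried by 39.8% of CIN_high and 40.0% of CIN_low cells. Spock2 had 8.97 in CIN_high and 7.57 in CIN_low, and was carried by 52.0% of CIN_high and 71.7% of CIN_low cells. The genes that set Cancer_cell_1 apart from other subtypes, Spock2 among them, were thus unevenly spread inside it.

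Because the classes are named for chromosomal instability, the share of a cell's UMIs that came from each autosome was measured. It is a measure of RNA, and the number of chromosomes was not measured. In cells with at least 8000 UMIs, after leaving out the 200 genes with the most UMIs, each cell's share was divided by the pooled share of Cancer_cell_1 in its library, and ratios above 1.25 or below 0.8 were counted. The measure was set after the data were seen. Of 435 CIN_high cells, 152 (34.9%, 30.5 to 39.6) had at least 1 chromosome past a line, against 91 of 611 CIN_low cells (14.9%, 12.2 to 18.0). With 50 genes left out in place of 200 the shares were 38.2% in CIN_high and 22.7% in CIN_low. At least 2 were past a line in 38 CIN_high cells (8.74%) and 10 CIN_low cells (1.64%). Over the 435 CIN_high and 611 CIN_low cells the median depth was 15114 and 15845 UMIs, so the CIN_high cells were slightly shallower. Cells with a chromosome past a line were shallower still, with medians of 13601.5 UMIs in CIN_high and 13530 in CIN_low. Other subtypes of CIN_high also had a larger share than those of CIN_low, 45.8% against 25.1% in Stem_cell_1 and 43.7% against 19.5% in Proliferating cells, while enterocytes had 56.4% in CIN_high and 61.5% in CIN_low.

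The shifted chromosomes were few and differed between the classes. Chromosome 7 was above 1.25 in 39 CIN_high cells (8.97%) and 1 CIN_low cell (0.164%), chromosome 8 in 23 CIN_high cells (5.29%) and 5 CIN_low cells (0.818%), and chromosome 6 in 13 CIN_high cells (2.99%) and 1 CIN_low cell. Chromosome 8 was also below 0.8 in 11 CIN_high cells (2.53%) and no CIN_low cell. Chromosome 9 ran the other way, above 1.25 in no CIN_high cell and in 17 CIN_low cells (2.78%, 1.63 to 4.42). Chromosome 18 was above 1.25 in 13 CIN_high cells (2.99%) and 13 CIN_low cells (2.13%). Both libraries therefore held cells with a chromosome past a line, called shifted here. How many such cells counting error alone would give was not tested. The variance of the shares over that of binomial counting was 12.4 in CIN_high and 3.12 in CIN_low for chromosome 7, 12 in CIN_high and 3.29 in CIN_low for chromosome 11, and 2.15 in CIN_high and 4.83 in CIN_low for chromosome 9.

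Each chromosome was split at its median gene to ask whether a shift ran along its length. Of the 34 CIN_high cells whose proximal genes of chromosome 7 were above 1.25, the distal genes were above it in 29, against 9 of the other 401 cells. Of the 17 CIN_low cells with high proximal genes of chromosome 9, all 17 had high distal genes, against 2 of the other 594. The shifts of chromosomes 7 and 9 thus spanned both parts of the chromosome. On chromosome 18, 6 of 34 CIN_high cells with high proximal genes had high distal genes, against 24 of the other 401. In CIN_low these were 8 of 33 cells, against 36 of the other 578. Chromosome 11 did not follow the pattern of chromosomes 7 and 9. No CIN_high cell had its proximal genes above 1.25, and 65 of 435 (14.9%, 11.7 to 18.6) had its distal genes above it, against 3 of 611 CIN_low cells (0.491%). In 8 bins of genes along chromosome 11, the share in those 65 cells over that in the other CIN_high cells was 0.997, 1.01, 0.987 and 0.992 in the first 4 bins, 1.31 in the fifth, whose genes start between 78541817 and 95044474 on mm10, and 1.71, 1.58 and 1.69 in the last 3, which begin at 95274259. On chromosomes 7, 8 and 9 the bins were read in cells chosen because the whole chromosome was above 1.25. A raised average was thus set by the choice, as in the distal bins of chromosome 11, and the bins describe only its course. On chromosome 7 the bins lay between 1.28 and 1.47, and on chromosome 9 between 1.35 and 1.57. On chromosome 8 they lay between 1.26 and 1.58 except for 1 bin, starting between 94137197 and 106200717, at 2.29 (2.21 to 2.38). That bin holds the metallothionein genes Mt1, Mt2, Mt3 and Mt4, which bind metal ions and are induced together. Without these 4 genes the bin lay at 1.39, and chromosome 8 was above 1.25 in 22 CIN_high cells and no CIN_low cell and below 0.8 in 6 CIN_high cells and no CIN_low cell.

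**Figure D5:**
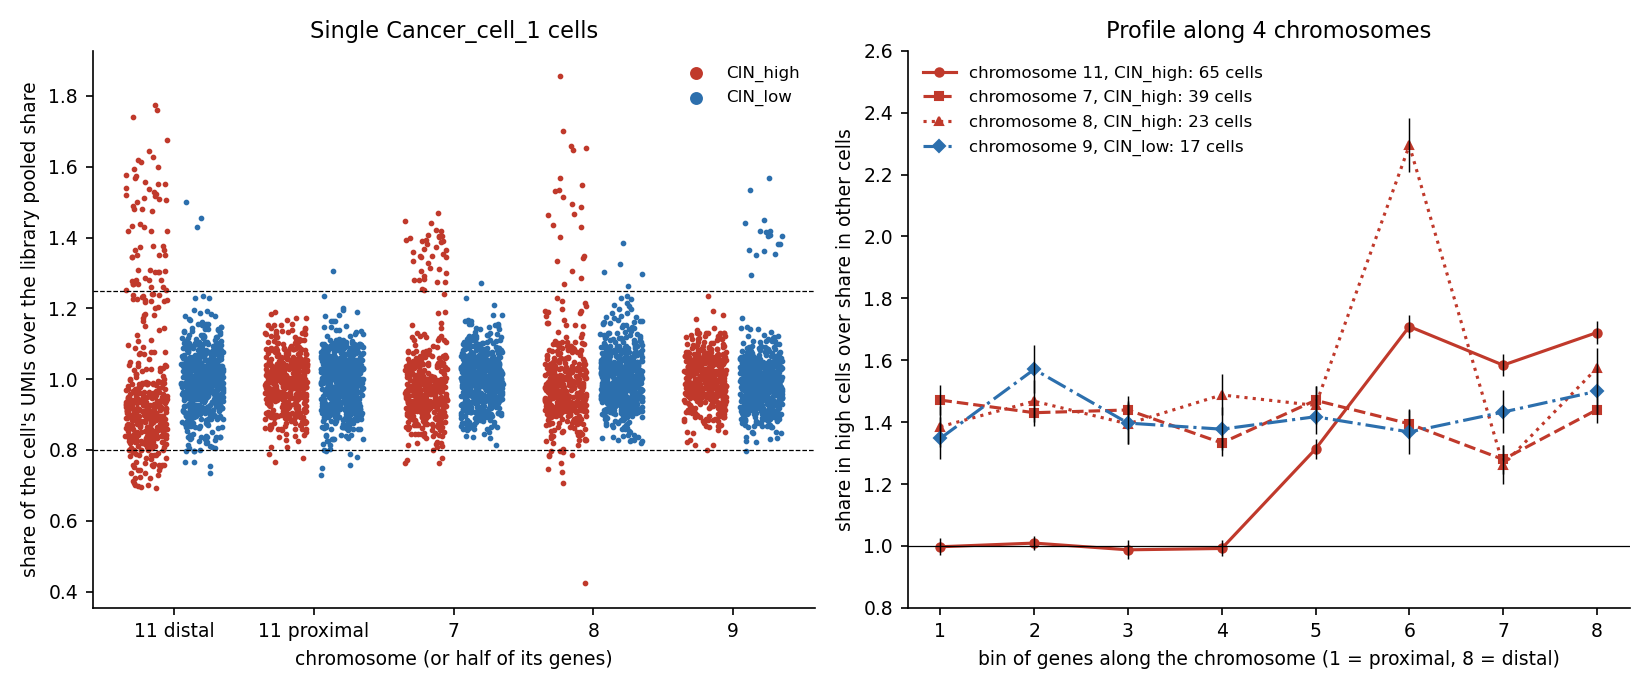
Left, each Cancer_cell_1 cell's share of UMIs from a chromosome or part of one over the library's pooled share (vertical axis), CIN_high left of CIN_low, with dashed lines at 1.25 and 0.8; right, the share in cells with a high ratio over that in the other cells of the library in 8 bins of genes from the proximal to the distal end, with 95% counting intervals. Distal chromosome 11 is above 1.25 in 65 CIN_high cells, whose first 4 bins lie near 1 and whose last 3 lie between 1.58 and 1.71.

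The distal chromosome 11 shift was compared across subtypes, each cell against the CIN_low mean of its own subtype. It was above 1.25 in 86 of 435 CIN_high Cancer_cell_1 cells (19.8%, 16.1 to 23.8) against 3 of 611 CIN_low cells. In Stem_cell_1 it was above in 143 of 273 CIN_high cells (52.4%, 46.3 to 58.4) against 5 of 267 CIN_low cells, in Proliferating cells in 31 of 103 CIN_high cells (30.1%), and in enterocytes in 4 of 78 CIN_high cells (5.13%). The order of the subtypes depends on what each cell is set against: against the mean of its own subtype and library, the share was 14.9% (11.7 to 18.6) in CIN_high Cancer_cell_1 cells and 13.6% (9.73 to 18.2) in CIN_high Stem_cell_1 cells, with overlapping intervals. Distal chromosome 11 carries genes named above. Axin2, annotated from position 108920349 on chromosome 11 of mm10, stood at 3.48 UMIs per 10000 in the 65 cells with a high distal part, 2.40 in the other CIN_high cells and 2.59 in CIN_low cells. Notum, from 120653788, stood at 2.70 in the 65 cells, 2.07 in the other CIN_high cells and 2.33 in CIN_low cells. Dcxr, from 120725399, stood at 2.70 in the 65 cells, 1.44 in the other CIN_high cells and 0.763 in CIN_low cells, and its class ratio was 1.88 (1.71 to 2.07) in the cells outside those 65, which still include some of the 86 above the CIN_low mean. Ccng1, on the proximal part of the same chromosome, stood at 1.72 in the 65 cells, 1.74 in the other CIN_high cells and 0.590 in CIN_low cells.

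The p53 targets were nearly level between cells of the same class with and without a whole chromosome past a line. Their summed level was 34.6 UMIs per 10000 in CIN_high cells with a chromosome past a line and 33.3 in those without, and 22.3 in CIN_low cells with one and 21.8 in those without. Cdkn1a stood at 5.73 in CIN_high cells with a shifted chromosome and 5.27 in those without, and at 2.83 in CIN_low cells with one and 2.41 in those without. In cells with no chromosome past a line, the median log2 ratio of CIN_high over CIN_low for the p53 targets was 0.805, and 18 members were at least 1.5-fold higher. This split read whole chromosomes. Chromosome 11 as a whole was above 1.25 in 20 CIN_high cells, while its distal genes were above it in 65. Cells with only the distal shift can therefore stand among those without a shifted chromosome.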

How the data were processed

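The deposited matrix holds 14097 cells and 21041 genes, and its values are the natural log of 1 plus UMIs per 10000, as deposited by the authors. Cell Ranger 2.1.1, Seurat and mm10 are named in the submitters' processing notes. UMIs were recovered from the steps of each cell's values, and 100% came out whole within a tolerance of 0.01. Classes and subtypes are the authors' deposited annotation. The 11 barcodes that both libraries share include none that is Cancer_cell_1 in both.

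Levels are summed UMIs per 10000 UMIs of a subtype and library. A gene was measured where its level averaged over both libraries reached 0.05. For comparisons between subtypes, this level was also averaged over Cancer_cell_1 and the group it was compared with. Ratios carry exact conditional binomial 95% intervals. A gene with 0 UMIs was set at a floor of 3 UMIs for a bound. For class ratios in other subtypes a gene also needed 30 UMIs. For shares and spread, cells were thinned to 5000 UMIs, which left out 39 CIN_high and 22 CIN_low cells. Scrublet, as implemented in Scanpy 1.11.5 and run on each library at an expected 6%, served as doublet caller and marked 142 CIN_high cells (2.29%) and 249 CIN_low cells (3.15%), and they were kept. SciPy 1.17.1 and pandas 2.3.3 were used under Python 3.11.15, with gene positions from the mm10 annotation. In simulated counts for 10186 genes, all genes changed 2- or 4-fold passed the 1.5-fold line and 0.220% of unchanged genes did.

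The members and the 39 gene lists were chosen with earlier results of these data known. The plan assumed a table of counts, and the recovered UMIs took its place. Genes were named by a fixed rule. It takes the marker genes and a short list of known genes, and the 12 largest class ratios each way at an average level of at least 0.5. It also takes the 12 largest ratios over the other epithelial cells, the 6 largest each way against each of the 3 next largest subtypes, and up to 4 members of a list with those it is known for. Predicted, mitochondrial, ribosomal, hemoglobin, antigen receptor and Y-linked genes were left out of the ranks. Igkc and the chromosome measures were chosen after their values were seen. Alternatives changed 1 choice at a time. A few genes of the rule are not reported here.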

Additional observations from a re-analysis of the deposited data

Results flagged for a closer look

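Between the classes, 6 list medians in other subtypes had the opposite sign to Cancer_cell_1, counting lists with at least 5 measured members and a median of at least 0.2 in size in both. The differences were not tested, and each rests on 1 library a class. As log2 of CIN_high over CIN_low, the median of S phase genes was -0.32 in Cancer_cell_1 and 0.212 in p57+_cancer_cell cells. Deep crypt secretory and Paneth-like genes had 0.28 in Cancer_cell_1 and -0.814 in p57+_cancer_cell cells, and colonocyte genes had -0.24 in Cancer_cell_1 and 0.299 in p57+_cancer_cell cells. Type I interferon genes had 0.31 in Cancer_cell_1 and -0.241 in enterocytes. Macrophage genes had -0.58 in Cancer_cell_1, 0.233 in Proliferating cells and 0.683 in enterocytes.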

How the results depend on the processing

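Of the alternatives for the values that answer a comparison, 169 kept their direction and size, 19 moved and 2 reversed, and among other values 380 were kept, 25 moved and none reversed. The 264 genes higher in CIN_high became 415 after thinning to 5000 UMIs, 500 at a minimum level of 0.02 and 87 at 0.2. The 353 lower genes became 711, 640 and 109 under these settings in that order. Fetal-like members higher (5) became 3 with a mean over cells and 3 at 0.2. S phase members lower (6) became 3 with a mean over cells, 1 at 0.2 and 2 without cells with a UMI of Mki67 or Top2a. Interferon members higher (7) became 3 at 0.2. The neutrophil median of -1.99 became -1.48 with a mean over cells. The p53 median of Cancer_cell_1 minus that of Stem_cell_1 (0.187) reversed to -0.018 with a mean over cells and -0.081 after thinning. Minus Proliferating (0.630) it became 0.356 with a mean over cells, and minus Enterocyte (0.586) it became 0.391 with a mean over cells and 0.388 after thinning. Genes with a variance over 2 times the mean (209) numbered 105 at 3000 UMIs. The CIN_low share of cells with a shifted chromosome (14.9%) was 22.7% with 50 genes left out and 18.9% in cells with at least 5000 UMIs, both settings chosen after seeing the data. A higher minimum level tests fewer genes. For the other changes the cause was not tested. The median gene's log2 ratio ranged over the alternatives between -0.088 and 0.00. No paired analysis was possible because each class is 1 library, and no replicate could be left out. Depth limits low genes: a gene at 0 UMIs may have gone undetected.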

Other observations

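Several genes outside the naming rule had larger ratios between the classes than the ranked genes did, and they were chosen after their values were seen. Gm42047, a long noncoding RNA gene on chromosome 8, had a level of 5.73 in CIN_high Cancer_cell_1 cells and 0.363 in CIN_low ones (15.8-fold), with a UMI in 72.7% of CIN_high and 9.72% of CIN_low cells. Mgmt, the enzyme that removes methyl groups from guanine, stood at 0.299 in CIN_high and 0.0651 in CIN_low (4.59-fold), with a UMI in 27.1% of CIN_high and 7.04% of CIN_low cells. Mcam (CD146), an adhesion molecule of vessels and some tumors, stood at 0.347 in CIN_high and 0.0465 in CIN_low (7.47-fold). Ano3, of the anoctamin family, had 111 UMIs in CIN_high and 8 in CIN_low. Mmrn1, a protein of platelets and endothelium, had 84 UMIs in CIN_high and 0 in CIN_low, but they came from 0.546% of CIN_high cells. Gm42047 was thus seen in most CIN_high cells, while the UMIs of Mmrn1 came from few.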
